A study of Mus musculus with 12 samples.

Results

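The genes described here encode collagens, laminins and integrins, together with the nidogens Nid1 and Nid2, the proteoglycan perlecan (Hspg2), Sparc and fibronectin (Fn1). They were found by gene symbol. Of 24736 genes measured, 86 matched, and the 57 whose mean level reached 1 TPM in at least 1 of the 4 groups of samples were described. TPM is a transcript's share of the library, corrected for its length, so that genes can be compared with each other. The 57 members comprised 16 genes of the basement membrane (of 22 matched), 17 interstitial collagens (of 26), 6 collagens of other kinds (of 10), Sparc and Fn1, which occur in both kinds of matrix, and 16 integrins (of 26). In 38 of the 57 the mean reached 1 TPM in every group. The other 19 entered only through the groups in which they were high. This favours differences between those groups and the rest, so for these genes such differences are a description. Next to the limit stood Itgb2, with a highest group mean of 1.0 TPM, and Col20a1 with 0.937, which was left out. The 29 genes left out included Col4a3, Col4a4, Lama2, Lama3, Lamc3, the collagen receptor chains Itga2, Itga10 and Itga11, and 5 leukocyte integrin chains (Itgad, Itgae, Itgal, Itgam and Itgax), and 15 of the 29 had enough counts to be tested.

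The RNA came from 12 cultures of mouse embryonic stem cells differentiated for 72 h, which fall into 4 groups of 3 labelled biological replicates. All cultures received bFGF at 10 ng/ml and LGK974 at 5 µM, which blocks the release of WNT ligands. EpiLC (epiblast-like cells) and CEpiLC (caudal epiblast-like cells) were wild type, and CEpiLC received CHIR99021, a GSK3 inhibitor that activates WNT signalling, from day 2 to day 3. SOX2-OFF and SOX2-ON, likewise given CHIR99021, were made from the SOX2 TetON line, whose genotype is Sox2-/- with a doxycycline-dependent Sox2 transgene in the Hprt locus. Doxycycline was present at 1 µg/ml while SOX2 TetON stem cells were grown, was kept in SOX2-ON and was left out during the differentiation of SOX2-OFF. Both lines carried the rtTA activator in the Rosa26 locus. The SOX2 TetON cells were a picked clone, so that line and SOX2 cannot be told apart in comparisons with the wild type. During differentiation only SOX2-ON received doxycycline, so that the drug and SOX2 cannot be told apart between SOX2-ON and SOX2-OFF. The stem cells had been grown on inactivated embryonic fibroblasts, which were removed by repeated plating, and differentiation took place on gelatin.

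Basement membranes are thin sheets of matrix under epithelia. Laminins, each built of an alpha, a beta and a gamma chain, and collagen IV form separate networks in them, which nidogens and perlecan link. Interstitial matrix is built instead on fibrillar collagens such as I, III and V and is laid down mainly by mesenchymal cells. Integrins are surface receptors of an alpha and a beta chain, in which the alpha chain largely sets whether laminin, collagen or fibronectin is bound. In the embryo around implantation, the epiblast lies on a basement membrane made in large part by the primitive endoderm and its descendants, and epiblast cells cross it as they leave the primitive streak.

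Library totals ran from 10408252 to 27337740 expected counts. Sox2 itself read 119 to 171 TPM in EpiLC against 7.78 to 13.7 in CEpiLC, and 12.3 to 21.2 TPM in SOX2-OFF against 173 to 215 in SOX2-ON, where transgene and endogenous transcripts are counted together. Levels of genes on 3 chromosomes differed as a whole between the lines under CHIR99021. The median log2 difference of SOX2 TetON from wild type was 0.57 on chromosome 6, 0.60 on chromosome 8 and -0.53 on chromosome 11, and between -0.01 and 0.05 on all others. Of the members, Col1a2 lies on chromosome 6, Col4a1, Col4a2 and Itgb1 on chromosome 8, and Col1a1, Col23a1, Itga3, Itgb3, Itgb4 and Sparc on chromosome 11, and their values with this shift removed are given where it matters. Levels in TPM and their sums were not corrected for it. A gene was called different at an adjusted p of at most 0.05 by edgeR's quasi-likelihood test, and all changes are log2 fold changes from that test. SOX2-OFF and SOX2-ON were both compared with the same CEpiLC libraries, so these comparisons are not independent.

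The sum of the 16 basement membrane genes separated the lines, whereas the sum of the 17 interstitial collagens did not. In the 3 libraries of each group the basement membrane genes summed to 403, 405 and 408 TPM in EpiLC and 531, 495 and 600.0 in CEpiLC. They summed to 1771, 1962 and 1733 TPM in SOX2-OFF against 848, 984 and 1735 in SOX2-ON. All 6 libraries of the SOX2 TetON line lay above all 6 wild-type libraries, and SOX2-ON replicate 3 lay within the range of SOX2-OFF. Much of this came from Col4a1 and Col4a2, both on chromosome 8. This pair summed to 788, 1035 and 893 TPM in SOX2-OFF, 370, 436 and 921 in SOX2-ON and 75.9, 63.7 and 78.4 in CEpiLC. The laminin chains summed to 315, 373 and 568 TPM in SOX2-ON, which overlapped with 219, 243 and 319 in CEpiLC. The interstitial collagens summed to 60.8 ± 6.49 TPM in EpiLC (SD, n = 3) and 73.1 ± 9.59 in CEpiLC. Their sums of 74, 54.9 and 62.3 TPM in SOX2-OFF against 70.9, 60.4 and 56.6 in SOX2-ON overlapped with both. The ratio of the basement membrane to the interstitial sum was between 6.0 and 7.77 in wild-type libraries, between 23.9 and 35.7 in SOX2-OFF. It was 11.9, 16.3 and 30.6 in SOX2-ON. In bulk RNA a change in the number of cells that express a gene and a change in its level per cell cannot be told apart.

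**Figure D1:**
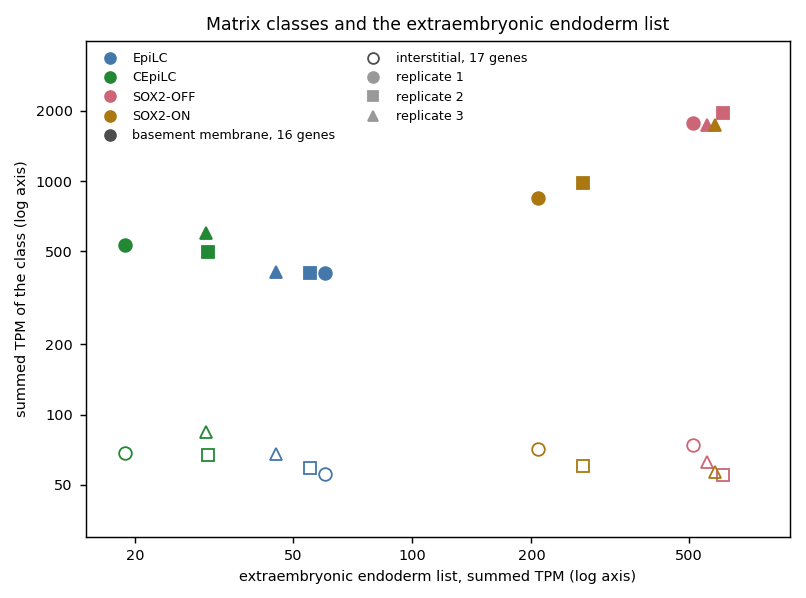
Summed TPM of the 16 basement membrane genes (filled symbols) and the 17 interstitial collagens (open symbols) in each of the 12 libraries, on a log axis, against the summed TPM of the extraembryonic endoderm marker list, also on a log axis; colours mark groups and shapes mark replicates. Basement membrane sums of SOX2-OFF and of SOX2-ON replicate 3 lie between 1733 and 1962 TPM, while all interstitial sums lie between 54.9 and 84.1 TPM.

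A list of genes typical of extraembryonic endoderm, which in the embryo produces much of this matrix, moved in the same libraries. Its 17 genes summed to 60.3, 55.4 and 45.3 TPM in EpiLC and 18.8, 30.5 and 30.1 in CEpiLC, but to 512, 607 and 554 TPM in SOX2-OFF against 208, 269.6 and 580.1 in SOX2-ON. Of the 15 that could be tested, 14 were called higher than in CEpiLC for SOX2-OFF and 14 for SOX2-ON, among them Gata4, Gata6, Sox7, Sox17, Cubn and Dab2. Of all genes tested, 23.6 and 27.9% were called higher in these comparisons. The endocytic adaptor Dab2 read 108, 149 and 123 TPM in SOX2-OFF with 38.4, 53.4 and 124 in SOX2-ON, against 4.66, 5.1 and 4.28 in CEpiLC. Afp and Apoa1, products of mature visceral endoderm, stayed under 1 TPM in all libraries and Ttr under 3. SOX2-ON replicate 3 exceeded the higher of the other SOX2-ON libraries more than 1.5-fold in 14 of the 15 tested genes of the list and in 6 of the 16 basement membrane genes (Col4a1, Col4a2, Hspg2, Lama1, Lamb1 and Nid2), but in none of the 17 interstitial collagens. Over 13306 tested genes with a mean of at least 1 TPM in some group, 3.86% did so. The part of such cells in the matrix values was not tested.

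A list of 13 genes stood for fibroblast feeders, which make interstitial collagen. Of these, Lum, Dpt and Ogn were below 1.4 TPM in every library, and Dcn read between 1.18 and 4.67 TPM. Cd248 read 8.26, 7.2 and 7.6 TPM in EpiLC, and Pdgfrb 5.46, 6.6 and 6.06 in CEpiLC. The list summed to 123, 149.6 and 229.6 TPM in EpiLC against 116, 125 and 154 in CEpiLC, and to 75.3, 87.3 and 32.2 TPM in SOX2-OFF against 39.5, 34.9 and 22.4 in SOX2-ON. This sum was carried by the contractile genes Tagln and Acta2 and by Thy1, which other cells also express. Of the 10 feeder genes tested, 2 were called higher and 1 lower in CEpiLC against EpiLC. Against CEpiLC, 1 was higher and 3 lower in SOX2-OFF, and 3 were higher and 5 lower in SOX2-ON. Of all genes tested, 22.1, 23.6 and 27.9% were higher and 20.1, 24.9 and 28.6% lower in these comparisons. A list of 8 endothelial and blood genes summed to between 4.11 and 24.1 TPM, with Ptprc and Tie1 below 0.1 TPM in every library.

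Collagen IV showed opposite changes in its chain pairs. Its genes lie head to head in pairs that share a promoter region, Col4a1 with Col4a2 on chromosome 8 and Col4a5 with Col4a6 on the X chromosome. Col4a1 (GRCm38, chr8:11198423-11312889) and Col4a2 (chr8:11312805-11449287) encode the chains of the common form of collagen IV, found in all basement membranes, while Col4a5 and Col4a6 encode chains of more restricted forms. The 300 bases from 250 before to 50 after each start are shown because both genes of a pair moved together and the pairs moved apart. They are RefSeq sequences on GRCm38.p6, read 5′ to 3′ on the strand of the gene, for Col4a1 at chr8:11312777-11313076 (minus strand), Col4a2 at chr8:11312555-11312854 (plus strand), Col4a5 at chrX:141475169-141475468 (plus strand) and Col4a6 at chrX:141474027-141474326 (minus strand). Capitals mark, in Col4a1 and Col4a2, the 78 bases that both windows share on opposite strands and, in Col4a5 and Col4a6, matches to the searched motifs.
Col4a1: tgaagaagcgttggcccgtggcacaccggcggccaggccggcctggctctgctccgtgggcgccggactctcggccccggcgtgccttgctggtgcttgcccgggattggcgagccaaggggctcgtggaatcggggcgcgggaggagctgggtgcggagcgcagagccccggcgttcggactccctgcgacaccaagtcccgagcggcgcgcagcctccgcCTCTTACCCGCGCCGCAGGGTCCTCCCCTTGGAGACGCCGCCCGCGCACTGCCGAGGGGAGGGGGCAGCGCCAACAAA
Col4a2: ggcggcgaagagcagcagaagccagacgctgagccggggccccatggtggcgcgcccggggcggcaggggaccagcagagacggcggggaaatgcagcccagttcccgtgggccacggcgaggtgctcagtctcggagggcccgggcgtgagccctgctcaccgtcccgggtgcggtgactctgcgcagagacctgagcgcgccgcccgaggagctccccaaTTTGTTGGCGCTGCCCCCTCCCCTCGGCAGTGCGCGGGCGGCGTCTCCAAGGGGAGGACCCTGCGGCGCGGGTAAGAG
Col4a5: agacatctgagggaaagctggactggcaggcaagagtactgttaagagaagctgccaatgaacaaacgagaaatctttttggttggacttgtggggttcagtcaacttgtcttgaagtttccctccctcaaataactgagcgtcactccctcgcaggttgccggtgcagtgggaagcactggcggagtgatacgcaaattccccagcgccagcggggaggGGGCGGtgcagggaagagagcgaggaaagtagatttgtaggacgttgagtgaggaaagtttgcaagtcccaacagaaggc
Col4a6: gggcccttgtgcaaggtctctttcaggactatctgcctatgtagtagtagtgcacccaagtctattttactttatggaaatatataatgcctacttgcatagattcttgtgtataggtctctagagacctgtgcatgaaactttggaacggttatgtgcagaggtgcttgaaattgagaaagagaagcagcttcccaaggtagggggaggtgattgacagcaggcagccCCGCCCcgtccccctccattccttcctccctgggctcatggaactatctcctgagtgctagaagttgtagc

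The starts used for these windows lie 21 bases apart for Col4a1 and Col4a2 and 1343 bases apart for Col4a5 and Col4a6. The annotated 5′ ends of Col4a1 and Col4a2 overlap on opposite strands, and the reads were counted by strand. The windows hold 74 and 73.7% G and C in Col4a1 and Col4a2, and 52.7 and 48.3% in Col4a5 and Col4a6, against a median of 52.7% over 32851 windows of that length. On either strand, the searched motifs were TCAAAG, the core bound by TCF/LEF factors, ACAAAG and ACAATG, cores bound by SOX factors, and GGGCGG, the GC box. Each of the 4 windows held the GC box (1, 3, 1 and 1 matches), as did 35.7% of all windows, and none held the TCF/LEF core or either SOX core, found in 16, 18.7 and 12.6% of all windows. A match describes these letters only, and its absence says nothing of the factor.

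Col4a1 read 41.8, 42.2 and 49.3 TPM in EpiLC against 52.5, 44.6 and 52.8 in CEpiLC, and 519, 697 and 591 TPM in SOX2-OFF against 246, 293 and 599.8 in SOX2-ON. It was the most abundant of all members in both groups of the SOX2 TetON line, but ranked 9 of 57 in EpiLC and 7 in CEpiLC. The libraries of that line lay above every wild-type library, with a log2 fold change over CEpiLC of 3.61 ± 0.27 SE or 12.2-fold in SOX2-OFF (edgeR adjusted p = 4.55e-07) and 7.36-fold in the SOX2-ON group (2.88 ± 0.26 SE, edgeR adjusted p = 1.18e-06). With the shift of chromosome 8 removed these differences were 3.01 and 2.28, and both remained called. Col4a2 followed with 14.6, 15.7 and 20.5 TPM for EpiLC, 23.5, 19 and 25.6 for CEpiLC, 268, 339 and 302 for SOX2-OFF and 125, 144 and 321 for SOX2-ON, and rose by 3.75 in SOX2-OFF and 3.07 in SOX2-ON (edgeR adjusted p = 7.9e-07 and 1.95e-06). With the shift removed Col4a2 read 3.16 and 2.47, and both remained called. The ratio of Col4a1 to Col4a2 went from 2.65 ± 0.228 in EpiLC (SD, n = 3) through 2.21 ± 0.144 in CEpiLC to 1.98 ± 0.0645 in SOX2-OFF, with 1.96 ± 0.0856 in SOX2-ON. CHIR99021 made no difference that passed the threshold to either gene in the wild type (0.18 and 0.44, edgeR adjusted p = 0.591 and 0.241).

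Between SOX2-ON and SOX2-OFF both genes depended on SOX2-ON replicate 3, which alone overlapped SOX2-OFF. Col4a1 fell by 0.73 in SOX2-ON (edgeR adjusted p = 0.0385), a call that was lost under DESeq2 (-0.72, adjusted p = 0.0751) and without SOX2-OFF replicate 2 or 3 or SOX2-ON replicate 1 or 2 (adjusted p = 0.133, 0.0782, 0.137 and 0.145). Col4a2 did not pass (-0.68, edgeR adjusted p = 0.0739), but did with a filter of 1 count (adjusted p = 0.0489). Without SOX2-ON replicate 3 the differences were -1.21 and -1.22, and both passed (edgeR adjusted p = 2.84e-05 and 8.62e-05).

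The pair on the X chromosome was scarcer and moved the other way. Col4a5 read 3.85, 4.54 and 3.53 TPM for EpiLC, 9.14, 7.0 and 5.43 for CEpiLC, 1.64, 1.86 and 1.27 for SOX2-OFF and 2.61, 2.92 and 2.99 for SOX2-ON. Col4a6 read 2.54, 2.5 and 2.16 TPM in EpiLC libraries and 6.45, 4.38 and 3.94 in CEpiLC, while SOX2-OFF had 0.60, 0.67 and 0.38 TPM and SOX2-ON 1.93, 2.03 and 1.75. Both rose with CHIR99021 in the wild type (0.86 and 1.05, edgeR adjusted p = 0.00126 and 0.000616), and both fell below CEpiLC in SOX2-OFF, Col4a5 by 4.47-fold and Col4a6 by 8.67-fold, with no overlap between the groups (edgeR adjusted p = 1.32e-06 and 3.5e-07). They were also lower in SOX2-ON than in CEpiLC (-1.38 and -1.42, edgeR adjusted p = 2.05e-05 and 3.5e-05). Within the SOX2 TetON line they stood higher in SOX2-ON than in SOX2-OFF (0.78 and 1.69, edgeR adjusted p = 0.00836 and 0.000125), and SOX2-ON replicate 3 did not stand apart in either.

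**Figure D2:**
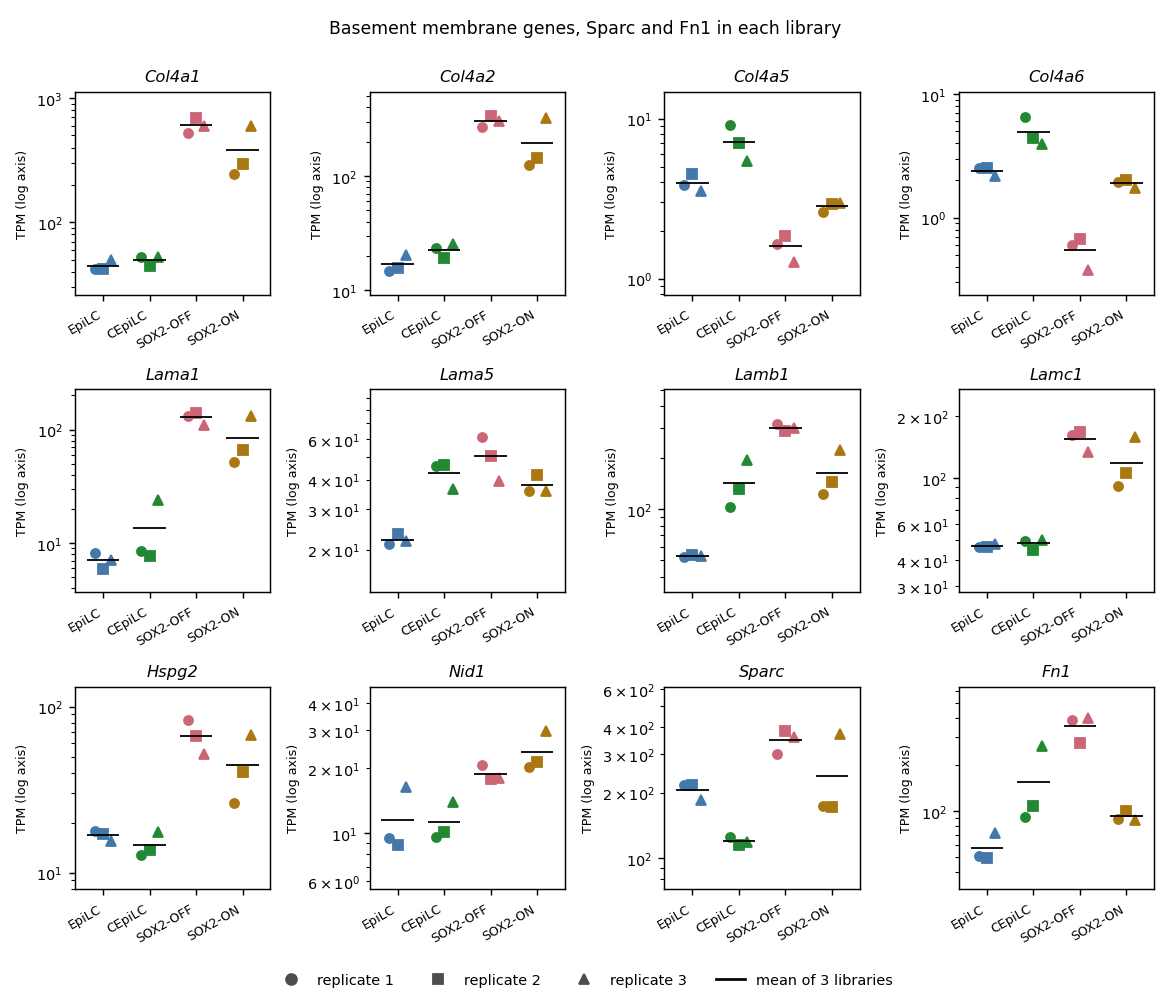
TPM of 10 basement membrane genes, Sparc and Fn1 in each library on log axes, by group; symbols mark replicates and lines the mean of 3 libraries. In SOX2-ON, replicate 3 sits above replicates 1 and 2 for Col4a1 (599.8 against 246 and 293 TPM), Col4a2, Lama1, Lamb1, Lamc1, Hspg2, Nid1 and Sparc, while for Col4a6, Lama5 and Fn1 it does not, and the Col4a5 values lie between 2.61 and 2.99 TPM.

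The laminin alpha chains changed their balance between the lines. Lama1, the alpha chain of the laminin first made in the embryo, read 8.13, 5.97 and 7.19 TPM for EpiLC, 8.54, 7.72 and 24.2 for CEpiLC, 133, 141 and 111 for SOX2-OFF and 52.4, 66.7 and 132 for SOX2-ON. It was higher in both groups of the SOX2 TetON line than in any wild-type library (9.8-fold over CEpiLC in SOX2-OFF, edgeR adjusted p = 2.97e-05, and 6.16-fold in SOX2-ON, adjusted p = 0.000122). CEpiLC replicate 3 stood apart from the other CEpiLC libraries, and without it these log2 fold changes were 4.0 and 3.33 in place of 3.29 and 2.62. Lama5, the alpha chain that is widespread in epithelia of the embryo, read 21.1, 23.4 and 21.7 TPM in EpiLC libraries and 45.9, 46.1 and 36.5 in CEpiLC, while SOX2-OFF had 61.1, 50.5 and 39.6 TPM and SOX2-ON 35.7, 41.7 and 35.9. Lama5 rose with CHIR99021 (0.97 ± 0.13 SE, edgeR adjusted p = 5.17e-05) and did not pass the threshold in SOX2-OFF or SOX2-ON against CEpiLC (0.25 and -0.22), but did in SOX2-OFF without SOX2-OFF replicate 3 (0.38, adjusted p = 0.0104) and in SOX2-ON without CEpiLC replicate 3 (-0.32, adjusted p = 0.0458). Between SOX2-ON and SOX2-OFF, Lama1 passed only without SOX2-ON replicate 3 (-1.15, edgeR adjusted p = 0.0338, against -0.67 with it). Lama1 made up between 14.3 and 39.9% of the 2 transcripts in wild-type libraries, between 68.4 and 73.7% in SOX2-OFF and between 59.5 and 78.7% in SOX2-ON.

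Of the partner chains shared by these laminins, Lamb1 rose with CHIR99021 and Lamc1 did not pass. Lamb1, the main beta chain, read 52.2, 53.8 and 53 TPM in EpiLC libraries and 102, 131 and 195 in CEpiLC, while SOX2-OFF had 314, 285 and 301 TPM and SOX2-ON 122, 144 and 221. It rose 2.7-fold with CHIR99021 (1.43 ± 0.22 SE, edgeR adjusted p = 0.000187) and stood higher again in SOX2-OFF than in CEpiLC (1.09, edgeR adjusted p = 0.000973), where all values exceeded all others. In SOX2-ON it did not differ detectably from CEpiLC (0.14, adjusted p = 0.588), with a negative sign without CEpiLC replicate 1 or SOX2-ON replicate 3, and was lower than in SOX2-OFF (-0.94, edgeR adjusted p = 0.00503). Lamc1, the common gamma chain, read 46.1, 46.3 and 48 TPM in EpiLC against 49.6, 44.8 and 50.1 in CEpiLC, and 161, 168 and 134 TPM in SOX2-OFF against 91.1, 105 and 158 in SOX2-ON. Its wild-type libraries lay between 44.8 and 50.1 TPM with and without CHIR99021 (0.05, adjusted p = 0.819), and it was higher in SOX2-OFF (1.69, edgeR adjusted p = 1.66e-06) and SOX2-ON (1.25, adjusted p = 1.29e-05) than in CEpiLC. The lower level of Lamc1 in SOX2-ON than in SOX2-OFF (-0.44, edgeR adjusted p = 0.0367) was -0.70 without SOX2-ON replicate 3 (adjusted p = 0.000115), and was not called without SOX2-OFF replicate 1 or 2 or SOX2-ON replicate 1 or 2 (adjusted p = 0.0896, 0.126, 0.141 and 0.135).

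Among the rarer laminin chains, Lamb3, a beta chain of epithelial anchoring sites, read 1.08, 1.79 and 0.98 TPM for EpiLC, 1.68, 1.54 and 2.28 for CEpiLC, 3.25, 2.71 and 1.99 for SOX2-OFF and 0.55, 0.36 and 0.40 for SOX2-ON. Its SOX2-ON libraries lay below all others, 6.26-fold under SOX2-OFF (edgeR adjusted p = 3.21e-05) and 4.2-fold under CEpiLC (adjusted p = 8.38e-05). Lamb2, a beta chain of later basement membranes, rose in SOX2-OFF (0.72) and SOX2-ON (0.38) over CEpiLC, the latter not without CEpiLC or SOX2-ON replicate 3 (adjusted p = 0.0658 and 0.0906). Lama4, a chain of vessel basement membranes, fell in SOX2-ON (-1.32). Lama4 did not pass in SOX2-OFF (-0.68, adjusted p = 0.0555) except without CEpiLC or SOX2-OFF replicate 1 or with the chromosome shift removed (-0.81, -0.98 and -0.75).

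Perlecan, encoded by Hspg2, carries heparan sulfate and binds growth factors such as FGF. Hspg2 read 17.8, 17.1 and 15.4 TPM for EpiLC, 12.7, 13.7 and 17.5 for CEpiLC, 82.6, 66.5 and 51.6 for SOX2-OFF and 26.4, 40.5 and 67 for SOX2-ON. It did not pass with CHIR99021 (-0.20) and rose 4.62-fold in SOX2-OFF and 2.97-fold in SOX2-ON over CEpiLC (edgeR adjusted p = 1.83e-05 and 0.000202). Between SOX2-ON and SOX2-OFF it passed only without SOX2-ON replicate 3 or with the filter of 1 count (-1.05 and -0.64, adjusted p = 0.0019 and 0.0499). Nid1, a nidogen that joins laminin to collagen IV, read 9.49, 8.82 and 16.3 TPM for EpiLC, 9.57, 10.2 and 13.9 for CEpiLC, 20.7, 17.8 and 18 for SOX2-OFF and 20.2, 21.5 and 29.8 for SOX2-ON, and was higher in both groups than in CEpiLC (0.78 and 1.06, edgeR adjusted p = 0.00873 and 0.000873). Nid2, the second nidogen, read 83.8, 75 and 77.9 TPM in EpiLC libraries and 126, 99.7 and 119 in CEpiLC, while SOX2-OFF had 132, 122 and 124 TPM and SOX2-ON 65.4, 64.9 and 99.8. Nid2 rose with CHIR99021 (0.55, edgeR adjusted p = 0.00609), did not pass in SOX2-OFF (0.14) and was lower in SOX2-ON than in CEpiLC and SOX2-OFF (-0.63 and -0.77, adjusted p = 0.00172 and 0.00106). Col18a1, whose product carries heparan sulfate and yields endostatin, fell from 87.9 ± 7.8 TPM (SD, n = 3) in EpiLC to 56.1 ± 15 in CEpiLC (-0.63, adjusted p = 0.00392).

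By count, 7 of the 16 basement membrane genes were called in CEpiLC against EpiLC (5 higher and 2 lower), 11 in SOX2-OFF against CEpiLC (9 and 2), 14 in SOX2-ON against CEpiLC (8 and 6) and 8 in SOX2-ON against SOX2-OFF (2 and 6). Of all 14196 genes tested, 42.2, 48.5, 56.5 and 28.8% were called in these comparisons, with 22.1, 23.6, 27.9 and 14.8% higher and 20.1, 24.9, 28.6 and 14.1% lower. The medians of the 16 were 0.46, 0.75, 0.26 and -0.55, against 0.01, -0.01, -0.01 and -0.01 over all genes. The genes higher in SOX2-OFF included Col4a1, Col4a2, Lama1, Lamb1, Lamb2, Lamc1, Hspg2 and Nid1, and these genes other than Lamb1 were also among those higher in SOX2-ON.

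Sparc and Fn1 code for abundant secreted glycoproteins. Sparc, which binds collagen IV and fibrillar collagens, read 218, 216 and 185 TPM in EpiLC against 125, 115 and 119 in CEpiLC, and 301, 385 and 362 TPM in SOX2-OFF against 174, 171 and 373 in SOX2-ON. It fell with CHIR99021 (-0.78 ± 0.23 SE, edgeR adjusted p = 0.0156) and was higher than in CEpiLC in SOX2-OFF (1.56, edgeR adjusted p = 0.000109) and SOX2-ON (0.96, adjusted p = 0.00314). With the shift of chromosome 11 removed the latter differences were 2.08 and 1.49, and without SOX2-ON replicate 3 the difference in SOX2-ON was 0.51. Sparc did not pass between SOX2-ON and SOX2-OFF (-0.60, edgeR adjusted p = 0.062) except with the filter of 1 count (adjusted p = 0.041) and without that library (-1.06, adjusted p = 2.66e-05).

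Fibronectin is the matrix on which cells migrate after leaving the primitive streak. Fn1 read 51.1, 49.5 and 71.8 TPM in EpiLC against 90.9, 107 and 263 in CEpiLC, and 390.2, 274 and 402 TPM in SOX2-OFF against 88.6, 99.6 and 87.3 in SOX2-ON. It was higher in CEpiLC than in EpiLC (1.44, edgeR adjusted p = 0.00287) and higher again in SOX2-OFF (1.22, adjusted p = 0.00615). CEpiLC replicate 3 lay far above the other CEpiLC libraries, and without it these differences were 0.79 and 1.86, both called. Fn1 was 4.05-fold lower in SOX2-ON than in SOX2-OFF with no overlap (log2 fold change -2.02 ± 0.32 SE, edgeR adjusted p = 0.000439), and SOX2-ON replicate 3 was the lowest library of its group. Fn1 was called lower in SOX2-ON than in CEpiLC (-0.80, edgeR adjusted p = 0.0436), but the difference was -0.16 without CEpiLC replicate 3 (adjusted p = 0.45), and the call was also lost when any 1 of the 3 SOX2-ON libraries was left out and under DESeq2 (adjusted p from 0.0729 to 0.108).

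The interstitial collagens stayed low. Their highest group means were 9.35 TPM for Col9a2 in EpiLC and, for Col5a1, 12.1 TPM in CEpiLC, 15.3 TPM in SOX2-OFF and 9.21 TPM in SOX2-ON, whereas 9 to 11 of the 16 basement membrane genes reached 10 TPM in each group. Of the 17, 10 were called in CEpiLC against EpiLC (7 higher and 3 lower), 9 in SOX2-OFF against CEpiLC (5 and 4), 9 in SOX2-ON against CEpiLC (4 and 5) and 4 in SOX2-ON against SOX2-OFF (2 and 2). These were 58.8, 52.9, 52.9 and 23.5% of the 17, against 42.2, 48.5, 56.5 and 28.8% of all genes tested. Their medians were 0.47, -0.40, -0.13 and 0.29.

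The chains of collagens I and III, the typical products of fibroblasts, varied widely within groups. Col1a1 read 4.45, 6.56 and 12.8 TPM in EpiLC against 4.13, 4.92 and 9.82 in CEpiLC, and 6.12, 2.58 and 1.5 TPM in SOX2-OFF against 8.34, 5.29 and 4.2 in SOX2-ON. Col3a1 read 2.25, 3.06 and 6.78 TPM in EpiLC libraries and 1.9, 2.46 and 4.47 in CEpiLC, while SOX2-OFF had 3.1, 0.99 and 0.52 TPM and SOX2-ON 4.37, 2.5 and 1.59. Neither passed the threshold in any comparison (edgeR adjusted p from 0.198 to 0.909 for Col1a1 and from 0.257 to 0.959 for Col3a1). Without SOX2-OFF replicate 1 both were called lower in SOX2-OFF than in CEpiLC (-1.53 and -1.83, adjusted p = 0.0334 and 0.0313), and their signs changed with the library left out in CEpiLC against EpiLC and in SOX2-ON against CEpiLC. The same libraries were high for both genes, namely EpiLC and CEpiLC replicate 3 and SOX2-OFF and SOX2-ON replicate 1, and in each of them both exceeded the others of the group more than 1.5-fold. Acta2, a contractile gene of the feeder list, was highest in the same libraries. It read 19.7, 23.4 and 66.7 TPM for EpiLC and 8.88, 17.2 and 37.6 for CEpiLC. Its SOX2-OFF values were 4.67, 3.73 and 3.12 TPM, those of SOX2-ON 3.13, 2.13 and 0.79. Dcn, Thy1, Lum, Fbln5 and Dpt were also highest in replicate 1 of each SOX2 TetON group. Dcn read 4.67, 2.81 and 1.85 TPM in SOX2-OFF with 4.1, 3.77 and 2.75 in SOX2-ON. Of the 10 feeder genes tested, 3 exceeded the others of the group more than 1.5-fold in SOX2-OFF replicate 1, against 1.3% of 13306 genes. In SOX2-ON replicate 1 none did. In EpiLC and CEpiLC, 2 did in replicate 3, but 2 also did in EpiLC replicate 2 and in CEpiLC replicate 1. Elsewhere in that list the order differed. Dcn read 2.01, 2.11 and 1.72 TPM in EpiLC and 1.29, 1.74 and 1.18 in CEpiLC. Thy1 read 66.8, 34.7 and 24.8 TPM in CEpiLC, and Tagln 46.8, 66.4 and 15.9 in SOX2-OFF. Cd248 and Pdgfrb were highest in replicate 2 of each SOX2 TetON group. No single library order thus held for all genes of the list. Their part in the collagen I and III values was not tested.

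Col1a2, the partner of Col1a1, read 4.32, 4.85 and 4.47 TPM for EpiLC, 8.36, 8.48 and 19.5 for CEpiLC, 11.1, 7.97 and 7.74 for SOX2-OFF and 10.6, 6.93 and 4.9 for SOX2-ON. It rose with CHIR99021 (1.39, edgeR adjusted p = 0.00476), whereas Col1a1 read -0.34 (adjusted p = 0.594), and the difference between the chains was not tested. Col1a2 lies on chromosome 6, and with the shift of that chromosome removed it was called lower in SOX2-OFF and SOX2-ON than in CEpiLC (-0.96 and -1.27, adjusted p = 0.0279 and 0.00544, against -0.40 and -0.70 without this step, adjusted p = 0.33 and 0.0808). It was also called in SOX2-ON without CEpiLC replicate 1 or 2 or SOX2-ON replicate 1 (-0.90, -0.91 and -1.06), and in SOX2-OFF read 0.11 without CEpiLC replicate 3.

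Several minor interstitial collagens responded to CHIR99021 by larger folds. Col27a1, a fibrillar collagen of cartilage, read 0.49, 0.55 and 0.57 TPM in EpiLC libraries and 3.05, 3.28 and 4.74 in CEpiLC, while SOX2-OFF had 5.49, 4.71 and 7.01 TPM and SOX2-ON 4.76, 5.0 and 6.77, a rise of 6.79-fold in the wild type (edgeR adjusted p = 1.24e-06). Col11a1, a chain of thin fibrils, went from 2.74 ± 0.0416 to 8.19 ± 0.794 TPM (SD, n = 3, adjusted p = 4.78e-07) and was lower than CEpiLC in both SOX2-OFF (-1.0) and SOX2-ON (-0.64, adjusted p = 1.56e-05 and 0.000407). The collagen IX chains, which decorate fibrils, fell with CHIR99021, Col9a2 by 3.96-fold and Col9a3 by 2.11-fold (edgeR adjusted p = 8.21e-07 and 0.00061). Col9a2 read 9.2, 9.58 and 9.28 TPM in EpiLC against 2.25, 2.6 and 2.17 in CEpiLC, and 2.92, 3.56 and 3.75 TPM in SOX2-OFF against 1.97, 2.24 and 2.93 in SOX2-ON, and its EpiLC values exceeded all others.

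Collagen VI, whose filaments lie beside basement membranes, divided between its chains. Col6a3 read 0.18, 0.24 and 0.24 TPM for EpiLC, 0.25, 0.39 and 0.27 for CEpiLC, 1.86, 1.16 and 0.79 for SOX2-OFF and 1.98, 2.58 and 3.01 for SOX2-ON. All values in the SOX2 TetON line lay above those in the wild type, 4.28-fold over CEpiLC in SOX2-OFF and 8.1-fold in SOX2-ON (edgeR adjusted p = 9.71e-05 and 2.74e-06). Col6a3 had means below 1 TPM in EpiLC and CEpiLC and entered only through SOX2-OFF and SOX2-ON, so these differences are a description. Col6a1 was lower than in CEpiLC in both (-0.81 and -0.50, adjusted p = 0.00246 and 0.0262), the latter not without CEpiLC replicate 1 or 2 or SOX2-ON replicate 2 or 3 (adjusted p from 0.061 to 0.11). Col6a2 did not pass in either (-0.42 and -0.13), but passed in SOX2-OFF with the chromosome shift removed or without SOX2-OFF replicate 1 (-0.49 and -0.61). Col5a1, a chain that starts fibrils, rose with CHIR99021 (0.45), was higher again in SOX2-OFF (0.34) and was lower in SOX2-ON than in CEpiLC (-0.44), with no overlap between the groups in any of these. The fibrillar chains Col11a2, Col2a1, Col5a2 and Col5a3, Col16a1 and Col22a1, which associate with fibrils, had group means between 0.453 (Col11a2 in EpiLC) and 6.53 TPM (Col2a1 in CEpiLC). Col11a2 and Col22a1 rose with CHIR99021 (1.0 and 1.0, edgeR adjusted p = 0.0122 and 0.000454), Col5a3 fell (-0.90, adjusted p = 0.0251), and Col2a1, Col5a2 and Col16a1 passed in no comparison. The call of Col5a3 with CHIR99021 was lost without EpiLC replicate 2 or CEpiLC replicate 2 or 3 (adjusted p = 0.101, 0.0516 and 0.0727). Against CEpiLC, Col11a2 was called higher in SOX2-OFF and SOX2-ON (1.01 and 0.70, edgeR adjusted p = 0.00476 and 0.0304). Col22a1 was called lower in both (-0.49 and -0.96, adjusted p = 0.0283 and 0.000357), and Col5a3 higher in SOX2-ON (0.98, adjusted p = 0.0116). The dependence of these calls on single libraries is not given here.

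**Figure D3:**
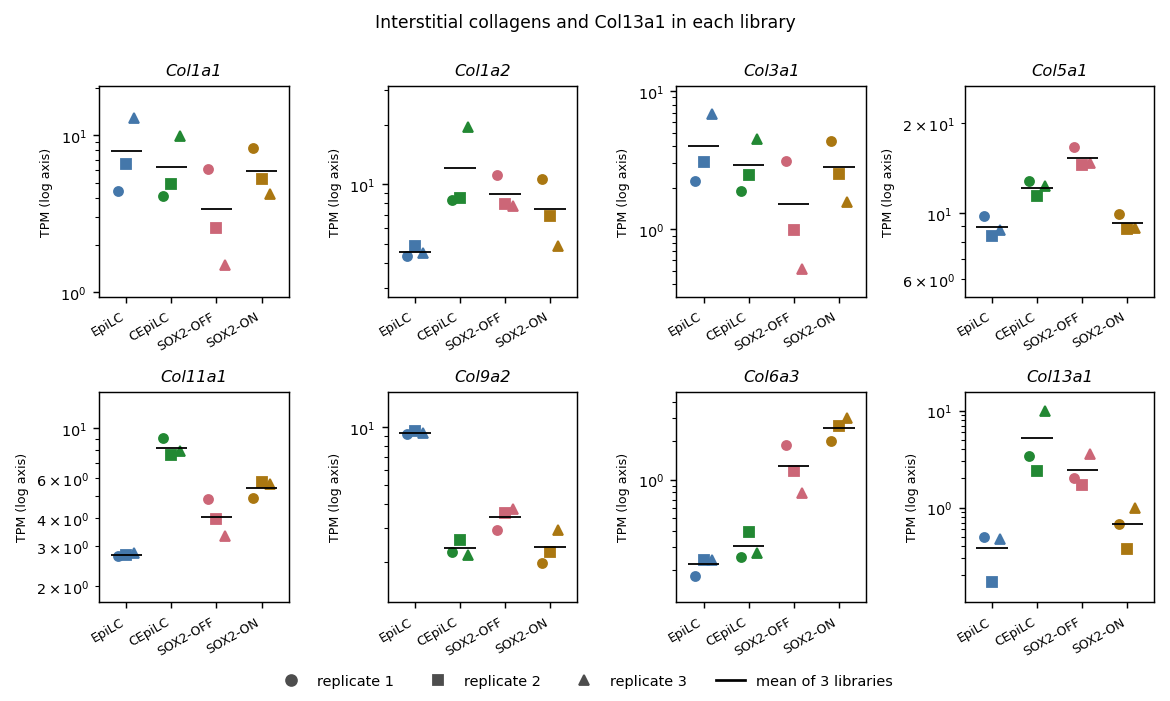
TPM of 7 interstitial collagens and the transmembrane collagen Col13a1 in each library on log axes, by group; symbols mark replicates and lines the mean of 3 libraries. Col1a1 and Col3a1 spread widely within groups (Col3a1 from 0.52 to 3.10 TPM in SOX2-OFF), whereas Col9a2 is highest in all 3 EpiLC libraries and Col6a3 in all 6 libraries of the SOX2 TetON line.

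The collagens of other kinds included 4 genes, Col13a1, Col23a1, Col25a1 and Col26a1, with means below 1 TPM in EpiLC and SOX2-ON, so that they entered through CEpiLC and SOX2-OFF, where they were higher, and counts over these 6 genes are given as a description. Of the 6, 4 rose and 1 fell in CEpiLC against EpiLC, none rose and 2 fell in SOX2-OFF against CEpiLC, with 4 not called, none rose and 5 fell in SOX2-ON against CEpiLC, and none rose and 3 fell in SOX2-ON against SOX2-OFF. Of all genes tested, 22.1, 23.6, 27.9 and 14.8% rose and 20.1, 24.9, 28.6 and 14.1% fell in these comparisons. Their sum read 7.99, 6.92 and 9.56 TPM in EpiLC and 16, 14.2 and 23 in CEpiLC, then 8.71, 6.99 and 9.36 TPM in SOX2-OFF against 4.89, 5.08 and 4.89 in SOX2-ON. It was highest in CEpiLC, but the entry of 4 of the 6 genes through CEpiLC and SOX2-OFF favours that order, so the sum too is a description only.

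Col13a1, a transmembrane collagen of adhesion sites, read 0.50, 0.17 and 0.47 TPM in EpiLC against 3.42, 2.4 and 9.81 in CEpiLC, and 2.0, 1.69 and 3.59 TPM in SOX2-OFF against 0.68, 0.37 and 1.0 in SOX2-ON. Its rise of 13.3-fold was the largest of all members in this comparison (log2 fold change 3.73 ± 0.61 SE, edgeR adjusted p = 0.000308), and was 2.95 on the log2 scale without CEpiLC replicate 3, the highest library. Col13a1 had between 5 and 163 counts in a library. Col26a1 read 0.86, 0.26 and 1.53 TPM for EpiLC, 5.59, 3.7 and 4.35 for CEpiLC, 1.05, 0.93 and 1.53 for SOX2-OFF and 0.79, 0.76 and 0.61 for SOX2-ON. Col25a1, a transmembrane collagen of neurons and muscle, read 0.29, 0.45 and 0.33 TPM in EpiLC against 1.05, 1.12 and 2.3 in CEpiLC, and 1.14, 0.84 and 1.11 TPM in SOX2-OFF against 0.35, 0.44 and 0.38 in SOX2-ON. Col23a1, another transmembrane collagen, read 0.86, 0.79 and 0.91 TPM for EpiLC, 3.2, 3.73 and 3.29 for CEpiLC, 1.09, 1.18 and 1.18 for SOX2-OFF and 0.70, 1.02 and 0.72 for SOX2-ON. All 3 rose with CHIR99021, by 5.36-, 4.06- and 4.01-fold (edgeR adjusted p = 0.000321, 0.00023 and 9.12e-07), and together with Col13a1 fell in SOX2-ON against CEpiLC by 6.54-, 3.91-, 4.3- and 7.61-fold (adjusted p = 8.23e-05, 0.000147, 3.62e-07 and 0.000594). Without CEpiLC replicate 3 the fall of Col13a1 in SOX2-ON was -2.14 on the log2 scale. In SOX2-OFF against CEpiLC Col26a1 and Col23a1 fell (-1.98 and -1.55, adjusted p = 0.000911 and 5.38e-06), while Col13a1 passed without CEpiLC replicate 2 or SOX2-OFF replicate 3 (-1.44 and -1.46, against -1.09). Col23a1 lies on chromosome 11, and with the shift removed it read -1.04 in SOX2-OFF and -1.56 in SOX2-ON. Col7a1, the collagen of anchoring fibrils, fell with CHIR99021 (-0.96, adjusted p = 0.000152), and Col8a1, with as little as 1 count in a library, passed in no comparison.

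Of the integrins, 11 of 16 were called in CEpiLC against EpiLC (4 higher and 7 lower), 11 in SOX2-OFF against CEpiLC (7 and 4), 11 in SOX2-ON against CEpiLC (9 and 2) and 7 in SOX2-ON against SOX2-OFF (4 and 3). These were 68.8, 68.8, 68.8 and 43.8% of the 16, where all genes tested gave 42.2, 48.5, 56.5 and 28.8%. Their medians were -0.34, 0.27, 0.48 and 0.07. The described integrins summed to 420.0 ± 7.55 TPM in EpiLC (SD, n = 3) and 291 ± 8.76 in CEpiLC, and to 477 ± 27 in SOX2-OFF and 499 ± 48.2 in SOX2-ON, and the 3 CEpiLC sums lay below all others. The largest part of each sum was Itgb1, on chromosome 8, with means of 202, 149, 280 and 266 TPM in these groups. The chromosome shift was not removed from the sums.

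Itgb1, the beta chain that pairs with most alpha chains, made up between 75.1 and 88.4% of the described beta chains in TPM. Itgb1 read 198, 207 and 202 TPM in EpiLC against 143, 158 and 146 in CEpiLC, and 292, 288 and 259 TPM in SOX2-OFF against 244, 258 and 296 in SOX2-ON. It fell with CHIR99021 (-0.43 ± 0.06 SE, edgeR adjusted p = 0.000154) and was higher in SOX2-OFF and SOX2-ON than in CEpiLC (0.92 and 0.80, edgeR adjusted p = 3.29e-07 and 4.88e-07). Itgb1 lies on chromosome 8, and with the shift of that chromosome removed the differences from CEpiLC were 0.32 and 0.19 (adjusted p = 0.00209 and 0.0287). Between SOX2-ON and SOX2-OFF it passed only without SOX2-ON replicate 3 (-0.20, adjusted p = 0.0233).

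The most abundant alpha chain was Itga6 in EpiLC, CEpiLC and SOX2-ON and Itga3 in SOX2-OFF, both of laminin receptors. Itga6, which forms laminin receptors with Itgb1 and Itgb4, read 87.3, 80.6 and 84.4 TPM for EpiLC, 55.7, 49.6 and 40.3 for CEpiLC, 42.6, 38.4 and 31.4 for SOX2-OFF and 67.1, 72 and 81.7 for SOX2-ON. Itga3, the other widespread laminin receptor, read 44.3, 47.4 and 38.9 TPM for EpiLC, 10.8, 13.5 and 10.5 for CEpiLC, 42.6, 41.4 and 33.4 for SOX2-OFF and 20.5, 19.7 and 30.5 for SOX2-ON. Both fell with CHIR99021, Itga6 by 1.72-fold and Itga3 by 3.74-fold (edgeR adjusted p = 0.000128 and 1.03e-06). In SOX2-OFF they parted. Itga3 had a mean of 39.1 TPM, 3.41-fold above CEpiLC (adjusted p = 1.72e-06), whereas Itga6 was called lower than in CEpiLC with overlapping values (-0.36, adjusted p = 0.0183), a call lost without CEpiLC replicate 1 or SOX2-OFF replicate 3 (adjusted p = 0.117 and 0.0814). In SOX2-ON both were above CEpiLC (0.56 for Itga6 and 0.98 for Itga3, adjusted p = 0.000976 and 0.000153), and against SOX2-OFF Itga6 was higher (0.92, adjusted p = 6.4e-05) and Itga3 lower (-0.79, adjusted p = 0.00164). Itga3 lies on chromosome 11, and with the shift removed it stood 2.28 and 1.52 above CEpiLC in SOX2-OFF and SOX2-ON.

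Itga7, a laminin receptor chain typical of muscle, was low but read 0.77, 1.2 and 1.95 TPM in EpiLC libraries and 0.75, 0.83 and 0.95 in CEpiLC, while SOX2-OFF had 0.41, 0.50 and 0.26 TPM and SOX2-ON 1.6, 1.74 and 2.87. It was 4.93-fold higher in SOX2-ON than in SOX2-OFF (edgeR adjusted p = 0.000406), with the SOX2-OFF values below all others. The call of its lower level in SOX2-OFF than in CEpiLC (-1.03, adjusted p = 0.0446) was lost when any 1 library of either group was left out (adjusted p from 0.0516 to 0.125). Itgb4, the partner of Itga6 at anchoring sites of epithelia, was higher in SOX2-OFF and SOX2-ON than in CEpiLC (1.11 and 0.75, adjusted p = 0.000848 and 0.0097, or 1.63 and 1.29 with the shift of chromosome 11 removed). Itga1, the only collagen-binding alpha chain among the members, rose 3.0-fold with CHIR99021 (1.59 ± 0.15 SE, edgeR adjusted p = 3.01e-06) and did not pass in the other comparisons.

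The receptors for fibronectin and other ligands with an RGD motif included genes higher in SOX2-OFF and genes higher in SOX2-ON. Itga5, the classical fibronectin receptor chain, read 16.6, 17.2 and 14.3 TPM in EpiLC against 12.9, 13.4 and 18.3 in CEpiLC, and 29.5, 29.9 and 28.4 TPM in SOX2-OFF against 13.5, 13.4 and 18.3 in SOX2-ON. Its SOX2-OFF values lay above all others, 2.01-fold over CEpiLC (edgeR adjusted p = 7.24e-05) and 2.02-fold over SOX2-ON (adjusted p = 0.00016). Itga8, which binds fibronectin and nephronectin, read 2.15, 1.43 and 1.69 TPM in EpiLC against 3.91, 4.02 and 6.81 in CEpiLC, and 15, 10.6 and 20.4 TPM in SOX2-OFF against 3.83, 3.55 and 7.42 in SOX2-ON. It rose with CHIR99021 (1.45, adjusted p = 0.00447) and was 3.21-fold higher in SOX2-OFF than in CEpiLC and 3.22-fold higher than in SOX2-ON (adjusted p = 0.000564 and 0.00113). Itga5 and Itga8 in SOX2-ON did not pass against CEpiLC (-0.01 and -0.01).

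Itgb5, a partner of Itgav that binds vitronectin, read 36.9, 39.3 and 32.2 TPM for EpiLC, 19, 19.9 and 21 for CEpiLC, 33.8, 31.8 and 31.6 for SOX2-OFF and 73, 68.9 and 71.5 for SOX2-ON. It fell 1.81-fold with CHIR99021 (edgeR adjusted p = 2.76e-06), and was 1.64-fold higher in SOX2-OFF than in CEpiLC (adjusted p = 1.04e-05). In SOX2-ON it was 3.49-fold higher than in CEpiLC and 2.12-fold higher than in SOX2-OFF (adjusted p = 5.71e-09 and 7.36e-07). The 3 SOX2-ON values exceeded all others, and replicate 3 did not stand apart. Itgb3, also a partner of Itgav, read 1.07, 1.51 and 1.9 TPM in EpiLC libraries and 0.50, 0.30 and 0.77 in CEpiLC, while SOX2-OFF had 0.79, 0.47 and 0.65 TPM and SOX2-ON 1.29, 1.31 and 2.12. It fell with CHIR99021 (-1.55, adjusted p = 0.00244) and was higher in SOX2-ON than in CEpiLC (1.6, adjusted p = 0.00115) and SOX2-OFF (1.26, adjusted p = 0.0117), the latter not called without SOX2-OFF replicate 2 (1.06, adjusted p = 0.061). Itgb3 lies on chromosome 11, and with the shift removed it stood 2.14 above CEpiLC in SOX2-ON. In SOX2-OFF it did not pass against CEpiLC with or without this step (0.87 and 0.35, edgeR adjusted p = 0.071 and 0.453). Itgav itself read 17.9, 16.5 and 21.2 TPM in EpiLC libraries and 20.6, 23.7 and 26 in CEpiLC, while SOX2-OFF had 28.6, 23.8 and 27.1 TPM and SOX2-ON 20.1, 25 and 24.8. It was called in CEpiLC against EpiLC only (0.34, adjusted p = 0.0233), with overlapping values, and that call was lost without EpiLC replicate 1 or 2 or CEpiLC replicate 2 or 3 (adjusted p from 0.0501 to 0.103).

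**Figure D4:**
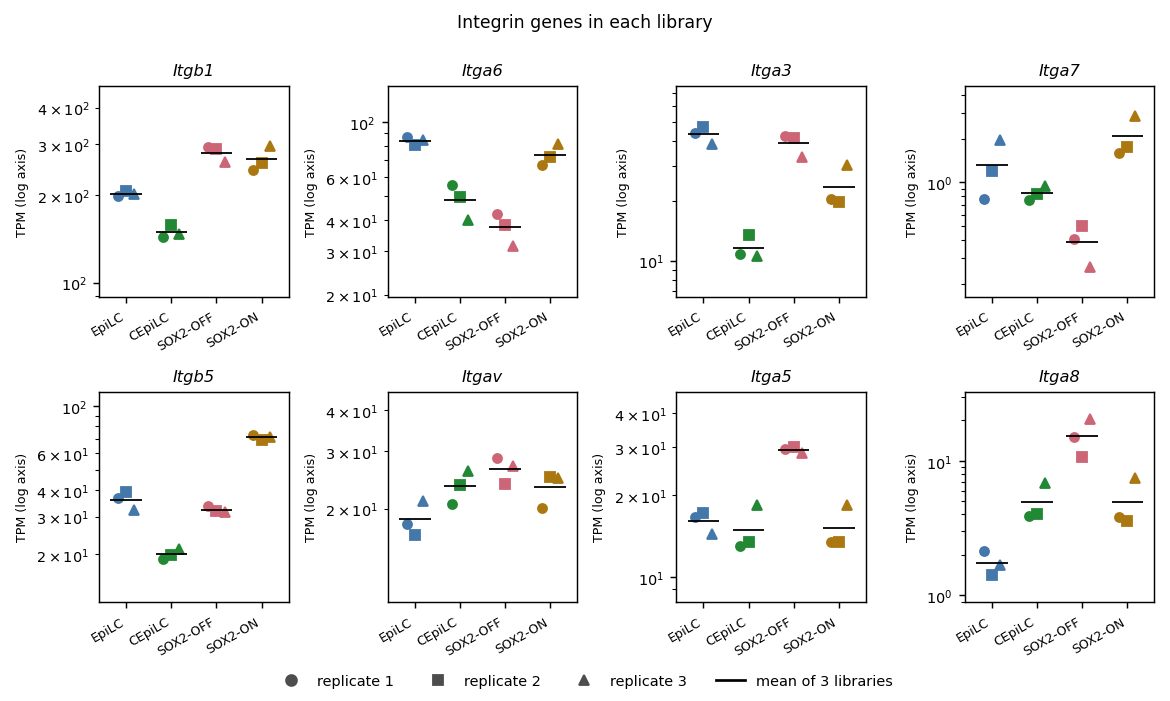
TPM of 8 integrin genes in each library on log axes, by group; symbols mark replicates and lines the mean of 3 libraries. Itga5 and Itga8 are highest in the 3 SOX2-OFF libraries, Itgb5 is highest in the 3 SOX2-ON libraries (68.9 to 73.0 TPM), and Itga3 is lowest in the 3 CEpiLC libraries.

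Among the remaining integrins, Itga4, which binds fibronectin and the vessel ligand VCAM, read 2.85, 2.12 and 2.49 TPM in EpiLC libraries and 1.19, 0.91 and 1.15 in CEpiLC, while SOX2-OFF had 0.82, 0.61 and 0.86 TPM and SOX2-ON 0.92, 1.03 and 1.14, and fell 2.29-fold with CHIR99021 (edgeR adjusted p = 0.000113). Itgb8, a partner of Itgav, read 5.1, 3.91 and 2.62 TPM for EpiLC, 2.85, 4.44 and 6.38 for CEpiLC, 2.45, 1.7 and 1.54 for SOX2-OFF and 2.7, 2.82 and 1.74 for SOX2-ON. It fell below CEpiLC in SOX2-OFF (-1.20, adjusted p = 0.00907). In SOX2-ON its call against CEpiLC (-0.91, adjusted p = 0.0278) was lost without CEpiLC replicate 2 or 3 or SOX2-ON replicate 3 (adjusted p = 0.0543, 0.118 and 0.108). Itgb2, a leukocyte beta chain, read 0.17, 0.22 and 0.36 TPM for EpiLC, 1.25, 0.59 and 1.17 for CEpiLC, 0.96, 0.53 and 1.05 for SOX2-OFF and 0.56, 0.61 and 0.33 for SOX2-ON, a rise of 4.18-fold with CHIR99021 (adjusted p = 0.00221) on 5 to 50 counts a library. Its usual alpha partners were below 1 TPM in all libraries, as was the leukocyte marker Ptprc. Itga9 fell with CHIR99021 (-0.69) and was higher than in CEpiLC in SOX2-OFF (0.71) and SOX2-ON (0.40), the last not without CEpiLC replicate 1 or SOX2-ON replicate 3 (adjusted p = 0.0951 and 0.108). Itgb7, a beta chain of lymphocytes, had group means of 0.643 to 1.81 TPM and was called in SOX2-ON against CEpiLC (0.92, adjusted p = 0.0298), a call lost without CEpiLC replicate 2 or SOX2-ON replicate 1 or 3 (adjusted p from 0.0644 to 0.121). Its mean reached 1 TPM in SOX2-ON only, the group through which it entered. Against SOX2-OFF Itgb7 did not pass in SOX2-ON (0.92, adjusted p = 0.0559), but passed with the chromosome shift removed or without SOX2-OFF replicate 3 (adjusted p = 0.0483 and 0.0132).

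Over all 57 members, 35 were called in CEpiLC against EpiLC (21 higher and 14 lower), 35 in SOX2-OFF against CEpiLC (23 and 12), 41 in SOX2-ON against CEpiLC (22 and 19) and 23 in SOX2-ON against SOX2-OFF (8 and 15), or 61.4, 61.4, 71.9 and 40.4%, beside 42.2, 48.5, 56.5 and 28.8% of all genes tested. Among the 38 members with a mean of 1 TPM or more in every group the numbers were 23, 26, 25 and 15. Leaving out SOX2-ON replicate 3 lowered the count in SOX2-ON against CEpiLC to 30 and raised that in SOX2-ON against SOX2-OFF to 28. All genes tested were not held to the limit of 1 TPM, so these shares are not like for like. Of the 15 matched genes tested but left out by that limit, 1 rose and none fell in CEpiLC against EpiLC. In SOX2-OFF against CEpiLC none of them rose and 4 fell. In SOX2-ON 2 rose and 3 fell against CEpiLC, and 2 rose and 1 fell against SOX2-OFF.

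**Figure D5:**
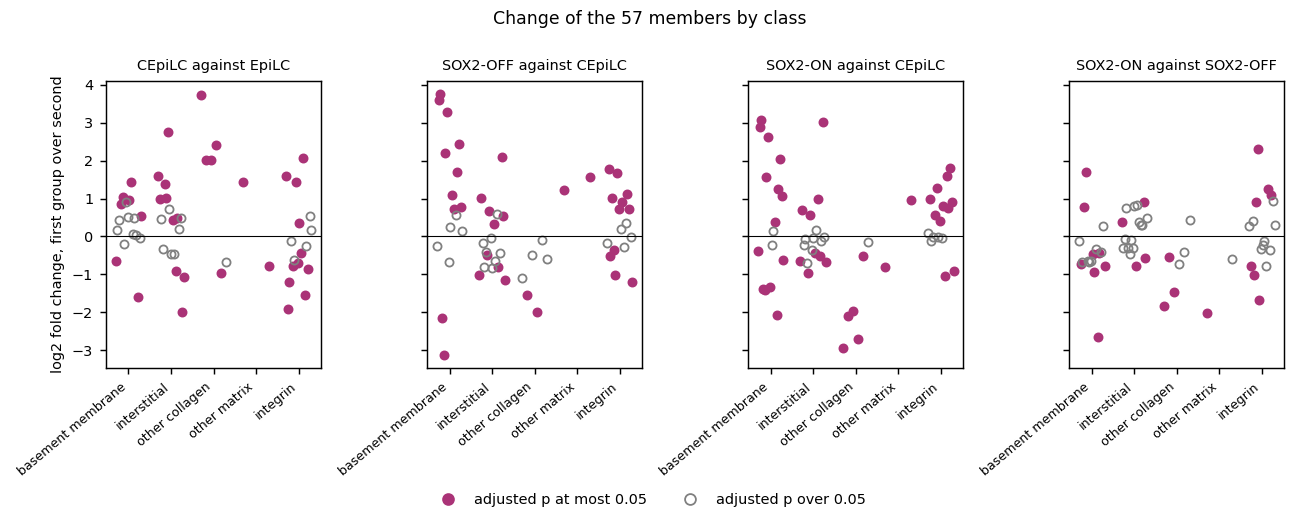
Log2 fold change of each of the 57 members by class in the 4 comparisons, the first group named over the second; filled points passed an adjusted p of 0.05 by edgeR and open points did not. Basement membrane genes span from -3.12 (Col4a6) to 3.75 (Col4a2) in SOX2-OFF against CEpiLC.

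Other genes of these pathways were taken as 5 lists. Of 19 tested genes for the hydroxylation, folding and secretion of collagen, 9 rose and none fell with CHIR99021, 10 rose and 4 fell in SOX2-OFF against CEpiLC, and 10 rose and 5 fell in SOX2-ON against CEpiLC. Over all genes tested 22.1% rose and 20.1% fell with CHIR99021, and the shares for SOX2-OFF were 23.6 and 24.9%, those for SOX2-ON 27.9 and 28.6%, while 42.2% were called in either direction with CHIR99021. The collagen chaperone Serpinh1 rose by 0.95 with CHIR99021 (edgeR adjusted p = 0.00063), and the proline hydroxylase P4ha1 rose by 1.24 in SOX2-OFF (adjusted p = 9.02e-06). The glycosyltransferase Colgalt1 was higher in both SOX2-OFF (1.01) and SOX2-ON (0.97). Of 14 genes for cross-linking and propeptide processing, 3 rose and 4 fell, 4 rose and 3 fell, and 3 rose and 4 fell in the same comparisons. Loxl4, a lysyl oxidase, rose with CHIR99021 (2.57, adjusted p = 1.86e-05) and was lower in SOX2-ON than in CEpiLC (-2.60, adjusted p = 8.75e-06).

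Other basement membrane components and receptors were divided, with 8 of 13 higher and 1 lower with CHIR99021, 4 higher and 4 lower in SOX2-OFF against CEpiLC, and 3 higher and 6 lower in SOX2-ON against CEpiLC. Tinagl1, a matrix protein related to nephritis antigens, was higher in SOX2-OFF (4.13, edgeR adjusted p = 2.12e-05) and SOX2-ON (2.83, adjusted p = 0.000454). Frem1, of the Fraser complex, and Smoc1, a Sparc relative, were lower in SOX2-OFF (-4.36 and -2.80) and SOX2-ON (-2.78 and -1.36). Of 10 matrix metalloproteinases and inhibitors, 2 rose and 2 fell with CHIR99021, 2 rose and 1 fell in SOX2-OFF and 1 rose and 5 fell in SOX2-ON, among them Mmp2 and Mmp16 (-1.26 and -2.39). Of 15 integrin adaptors and focal adhesion genes, 4 rose and 8 fell with CHIR99021, among the latter the adaptor Bcar1 (-1.57, adjusted p = 1.12e-07), which exceeded CEpiLC in SOX2-OFF (0.76). In SOX2-OFF 6 rose and 2 fell, and in SOX2-ON 5 rose and 3 fell. In SOX2-ON against SOX2-OFF the 5 lists gave 2 higher and 4 lower, 1 and 5, 3 and 4, 1 and 4, and 4 and 7. Over all genes tested 14.8% were higher and 14.1% lower in this comparison, or 28.8% called. For the other comparisons the shares given with the first list stand beside all 5.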

How the data were processed

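PolyA RNA libraries were read as strand-specific single reads of 76 bp. As the study's methods and the submitters' processing notes state, the authors trimmed reads with cutadapt 1.16 and counted RefSeq genes of mm10 with STAR 2.5.2a and RSEM 1.3.0, by strand. They deposited one table of expected counts, which need not be whole where reads match several genes, and of TPM values as RSEM scaled them. Replicates were not pooled. Here expected counts were rounded and tested, and TPM was used for levels only. The 14196 of 24736 genes kept by filterByExpr in edgeR entered one model of all 12 samples with TMM scaling by the quasi-likelihood test (edgeR 4.0.16, limma 3.58.1, R 4.3.3), with Benjamini-Hochberg adjustment over all genes tested and a threshold of 0.05. The test was checked on simulated counts.

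Members, classes, lists and motifs were chosen with earlier results of these data known. Named with the value in every library were 16 core members and, per comparison and direction, the 5 called members with the largest change and no overlap, 34 in all, and further members where a result turned on them. The alternatives were RLE scaling, a filter of 1 count, DESeq2 1.42.0, the replicate number as a block, removal of the median shift of each chromosome (from genes averaging 4 log2 CPM or more) and leaving out each library. Same-numbered EpiLC and CEpiLC libraries deviated together across genes (r = 0.120, 0.132 and 0.103), on the evidence of the values and not of the labels. The main test did not pair them, and pairing by number entered only as the block among the alternatives. Positions and promoters are RefSeq on GRCm38.p6, the assembly also called mm10, and 40 of 57 members had a promoter window. P-values measure the spread between cultures labelled as replicates of a line, and reads without molecular identifiers give counting precision only. The values of 1 member, which stays in the counts, medians and summed levels, are not reported here.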

Additional observations from a re-analysis of the deposited data

How the results depend on the processing

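The number of called members stayed within 1.5 times its value under every alternative, with 33 to 35 of 57 in CEpiLC against EpiLC, 31 to 38 in SOX2-OFF against CEpiLC, 30 to 42 in SOX2-ON against CEpiLC and 16 to 28 in SOX2-ON against SOX2-OFF. With the replicate number as a block the counts were 35, 38, 41 and 27. In CEpiLC against EpiLC all 3 correlations of same-numbered libraries exceeded 0.1, and there the block changed no call. It added calls in SOX2-OFF against CEpiLC and in SOX2-ON against SOX2-OFF. Elsewhere 1 or more of the 3 correlations fell below 0.1, the lowest being 0.0526, while others were higher, up to 0.201 in SOX2-ON against CEpiLC. In each comparison 6 of 6 libraries correlated best with their own number, a hint from the data and not from the design. The labels give the numbers no meaning beyond the name, so whether the cultures were paired is not known. Of 2508 alternative values of 228 gene results, 2299 kept direction and side of the threshold, 106 lost and 46 gained a call, and 57 changed or lost their sign, all in results that were not called. In SOX2-ON against CEpiLC, Itga5 read 0.00 under RLE scaling and 0.01 with the chromosome shift removed, Itga8 0.00 under RLE scaling and under the filter of 1 count, and Col1a1 0.47 with the chromosome shift removed. In SOX2-OFF against CEpiLC, Itgb7 read 0.01 under DESeq2. Other changes of sign came with libraries left out. For CEpiLC against EpiLC these values were -0.79 to 0.16 for Col1a1, -0.86 to 0.11 for Col3a1, -0.13 to 0.44 for Itgb8, -0.01 to 0.14 for Lamb2 and -0.21 to 0.28 for Nid1. For SOX2-OFF against CEpiLC these values were -0.39 to 0.12 for Col16a1, -0.39 to 0.00 for Col18a1, -0.60 to 0.11 for Col1a2, -0.54 to 0.29 for Col2a1, -1.57 to 0.01 for Col8a1, -0.55 to 0.02 for Itgb2 and -0.40 to 0.30 for Itgb7. For SOX2-ON against CEpiLC these values were -0.37 to 0.06 for Col16a1, -0.42 to 0.38 for Col1a1, -0.53 to 0.36 for Col3a1, -0.40 to 0.46 for Col5a2, -0.31 to 0.01 for Col6a2, -0.61 to 0.44 for Col8a1, -0.18 to 0.09 for Col9a2, -0.15 to 0.16 for Itga5, -0.39 to 0.28 for Itga8, -0.12 to 0.04 for Itgav and -0.12 to 0.44 for Lamb1. For SOX2-ON against SOX2-OFF these values were -0.21 to 0.17 for Col16a1, -0.27 to 0.07 for Col27a1, -0.63 to 0.19 for Col2a1 and -0.03 to 1.41 for Col8a1. The cause of these changes was not tested. Members with few counts, such as Col8a1, Col13a1, Itgb2 and Itga7, with under 10 counts in some library, are limited by depth.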
